A study of Mus musculus with 458 samples.

Results

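The nuclear genes of oxidative phosphorylation were followed, complex by complex, in donor haematopoietic stem cells (HSCs) recovered from mice that had each received a single HSC expressing Vwf. Members were taken by name: every gene whose symbol starts with Nduf followed by a, b, c, s or v (complex I), Sdha to Sdhd (complex II), Uqcr (complex III), Cox4 to Cox8 (complex IV) or Atp5 (complex V). This gave 92 of the 22645 genes in the expression table, 45 for complex I, 4 for complex II, 8 for complex III, 18 for complex IV and 17 for complex V. The name rule also brings in 7 Ndufaf genes, which help to assemble complex I and are no part of it, and Atp5s and Atp5sl, which are no subunits of ATP synthase. It places Ndufa4, now counted with complex IV, under complex I, and it leaves out Cyc1, the haem subunit of complex III.

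Each of the 458 cells was sorted from bone marrow of C57BL/6 recipients as LSK CD150+CD48-CD45.2+ and sequenced on its own. This phenotype selects HSCs, and CD45.2 tells donor from host cells. The recipients had been followed for 16 weeks and fell into 3 reconstitution types with 2 mice each. These were platelet-restricted (PLT 1 with 93 cells, PLT 2 with 84), platelet-erythroid-myeloid (PEM 1 with 93 cells, PEM 2 with 25) and multilineage (MUL 1 with 78 cells, MUL 2 with 85), named by the blood lineages that the single cell replenished. The MUL mice served as the comparison. All 6 mice share the single-cell transplant, so no group here is an untransplanted control, and each mouse holds the progeny of 1 stem cell. The names of both MUL mice share their first part, and each other mouse has a first part of its own. If that part marks the experiment, experiment and reconstitution type cannot be told apart. PLT 2 and PEM 2 were recorded as female and the other mice as male.

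In oxidative phosphorylation, electrons from NADH enter the inner mitochondrial membrane at complex I and those from succinate at complex II. They pass through complex III to complex IV, where oxygen is reduced, and the proton gradient built on the way drives ATP synthesis by complex V. All subunits of complex II are encoded in the nucleus, while the other complexes also hold subunits encoded in mitochondrial DNA, which this table does not list. HSCs are known for leaning on glycolysis when quiescent and for drawing more on mitochondrial respiration when they begin to differentiate.

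Libraries held 1.3 to 17.3 M mapped reads, with a median of 4.9 M. The median number of detected genes per cell was 1869 in PLT 1, 2596 in PLT 2, 3186 in PEM 1, 2752 in PEM 2, 2210 in MUL 1 and 2553 in MUL 2. At least 3 of 12 HSC markers were above 0 in every cell. Neutrophil markers summed to 2929 RPKM in PLT 1 and 14927 in PEM 2, against 33.5 to 964 in the other mice. Most of it was S100a8, with 1822 RPKM in PLT 1 and 9322 in PEM 2, and Elane and Mpo were listed at 0 in every mouse. Megakaryocyte markers summed to 170 RPKM in PLT 1, 692 in PLT 2, 514 in PEM 1 and 1461 in PEM 2, against 222 in MUL 1 and 56.5 in MUL 2, with none of the 5 at 0 in the PLT and PEM mice and 1 at 0 in each MUL mouse. At least 3 of them were above 0 in 0% of PLT 1, 22.6% of PLT 2, 43% of PEM 1 and 32% of PEM 2 cells, against 6.41% of MUL 1 and 7.06% of MUL 2 cells. Except in MUL 2, most of each sum was Pf4. It had 133 RPKM in PLT 1, 633 in PLT 2, 419 in PEM 1 and 1382 in PEM 2. The MUL mice had 174 and 19.4 RPKM. In PLT 2, Gp1ba and Ppbp also lay above both MUL mice. Itga2b (2.68 RPKM, against 23.3 and 6.57) and Gp9 (12.9, against 18 and 27.6) lay below them. Thus the sums of PLT 2 and both PEM mice, mainly Pf4, lay above both MUL mice, and that of PLT 1 did not. At least 3 B cell markers were above 0 in 12% of PEM 2 cells and in no cell of the other mice. The part of these transcripts in the values below was not tested. Erythroid markers summed to 1030 to 1956 RPKM over the 6 mice, nearly all of it Car2. A set of 7 cells, 5 of PEM 1 and 2 of PEM 2, had RPKM values that summed to more than 800000 where the mouse medians lay between 495608 and 599684. In the 5 PEM 1 cells the members alone summed to a median of 100395 RPKM, against 19926 in the rest of that mouse, while fewer genes were detected (2152 against 3194). Some of the sums, shares, counts and medians below are also given without these cells. All other values, levels of single genes among them, include these cells unless said otherwise.

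The promoters of the members held letters of known respiratory-gene motifs at a higher rate than all promoters. NRF1, GABPA and YY1 are transcription factors long tied to nuclear respiratory genes, and the letters searched for, on both strands, were GCGC, then any base, then TGCGC for NRF1 (GCGCA, any base, GCGC when read on the other strand), CCGGAAGT for GABPA and AAGATGGCG for YY1. Of the 92 members, 76 matched an entry of the RefSeq promoter table for GRCm38.p6, which runs from 250 bases before to 50 after a start. The NRF1 letters occurred in 19 of 76 (25%), against 5.19% of 27025 genes in that table. Those for YY1 occurred in 8 (10.5%), against 1.64%, and those for GABPA in 5 (6.58%), against 4.31%. Some 30 members (39.5%) held at least 1 of the 3, against 10.3% of all genes. A match describes letters in a window and is no measured binding site. The windows below are those of 2 members among the smallest unadjusted p on the higher side between PLT and MUL mice (Atp5k and Ndufa8), 1 among those between PEM and MUL mice (Atp5j2), and 2 with a lower mean in PLT mice (Sdha and Uqcrc1). Capitals mark the NRF1 letters, except in Atp5j2, where they mark those of YY1.
Atp5k: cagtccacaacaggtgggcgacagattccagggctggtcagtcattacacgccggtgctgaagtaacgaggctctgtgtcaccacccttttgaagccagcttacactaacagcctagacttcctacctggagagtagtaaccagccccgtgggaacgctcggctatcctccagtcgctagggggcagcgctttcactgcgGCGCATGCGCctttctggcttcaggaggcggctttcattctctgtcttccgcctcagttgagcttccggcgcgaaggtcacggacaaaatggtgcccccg
Ndufa8: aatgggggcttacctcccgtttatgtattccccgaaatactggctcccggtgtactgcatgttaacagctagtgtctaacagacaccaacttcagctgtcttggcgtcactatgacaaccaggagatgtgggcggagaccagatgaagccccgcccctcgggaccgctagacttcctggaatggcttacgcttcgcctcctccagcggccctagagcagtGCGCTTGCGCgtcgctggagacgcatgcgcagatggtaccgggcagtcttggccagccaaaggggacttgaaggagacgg
Atp5j2: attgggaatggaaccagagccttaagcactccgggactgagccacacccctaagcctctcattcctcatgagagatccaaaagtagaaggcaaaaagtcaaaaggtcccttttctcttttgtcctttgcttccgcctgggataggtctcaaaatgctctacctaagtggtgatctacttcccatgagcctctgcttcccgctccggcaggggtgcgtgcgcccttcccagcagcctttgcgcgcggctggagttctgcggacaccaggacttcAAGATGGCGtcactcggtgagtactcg
Sdha: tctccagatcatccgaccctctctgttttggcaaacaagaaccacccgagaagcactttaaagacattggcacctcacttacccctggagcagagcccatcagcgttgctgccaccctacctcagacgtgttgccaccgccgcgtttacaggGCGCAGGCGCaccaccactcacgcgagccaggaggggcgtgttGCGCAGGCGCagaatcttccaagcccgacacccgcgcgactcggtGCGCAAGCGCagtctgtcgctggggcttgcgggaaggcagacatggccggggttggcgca
Uqcrc1: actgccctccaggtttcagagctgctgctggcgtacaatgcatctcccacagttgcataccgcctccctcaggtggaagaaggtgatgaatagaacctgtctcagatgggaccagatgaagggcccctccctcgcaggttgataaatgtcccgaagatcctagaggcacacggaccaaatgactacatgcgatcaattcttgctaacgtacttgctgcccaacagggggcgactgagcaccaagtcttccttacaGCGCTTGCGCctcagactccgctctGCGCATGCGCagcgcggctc
These windows lie at chr5:108434350-108434649 (minus strand) for Atp5k, chr2:36049289-36049588 (minus strand) for Ndufa8, chr5:145191492-145191791 (minus strand) for Atp5j2, chr13:74350191-74350490 (minus strand) for Sdha and chr9:108936398-108936697 (plus strand) for Uqcrc1 in GRCm38.p6, the mm10 build. Members with and without a motif had similar medians. The 29 tested members with any of the 3 motifs had a median log2 fold change of 0.51 between PLT and MUL mice, and the 43 without had 0.62. Between PEM and MUL mice the medians were 0.47 and 0.45.

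The members were among the more abundant transcripts of these cells. Levels are in RPKM, which divides a cell's reads on a gene by the gene's length and the cell's total. A gene was tested when its mean over the cells reached 1 RPKM in at least 2 mice. Of the 92 members 85 passed, 43 in complex I, 4 in II, 8 in III, 13 in IV and 17 in V. The tested members had a median level of 248 RPKM over the 6 mice, against 10.8 RPKM for all 11337 genes tested. The median member reached 1 RPKM in 70.5% of cells, against 12.7% for the median gene tested. By complex, the median level was 183 RPKM for complex I, 206 for II, 424 for III, 381 for IV and 290 for V. The most abundant members were Ndufa4 with 685 RPKM, Cox4i1 with 674, Ndufb8 with 644, Uqcrh with 612 and Cox6b1 with 606. Within complex I the 7 core subunits, which carry the redox centres, had a median of 183 RPKM and the 29 supernumerary ones 260 RPKM, while the 7 assembly factors had 29.6 RPKM.

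Of the 7 members that were not tested, 6 were listed at 0 in every cell and Cox7a1 was above 0 in 2 cells. Most are isoforms of muscle, testis or other tissues (Cox6a2, Cox7a1, Cox8b, Cox7b2, Cox8c and Ndufa4l2). Ndufs5, a supernumerary subunit found in most tissues, was also listed at 0 in all 458 cells, and 1 other gene of the annotation is near-identical to it. A listing of 0 can be a failed count, so nothing is read from it. In each isoform pair the widely expressed form led. Cox4i1 stood at 674 RPKM and Cox4i2, the form induced by low oxygen, at 6.8 RPKM, above 0 in 44 of the 458 cells. Cox6b1 stood at 606 RPKM and Cox6b2, known from testis, at 10.2 RPKM. Cox6a1 stood at 381 RPKM, Cox7a2 at 249 RPKM and Cox8a at 326 RPKM, beside partners listed at or near 0. The c ring of ATP synthase, whose mature subunit is the same protein from 3 genes, drew 355 RPKM from Atp5g1, 170 from Atp5g2 and 160 from Atp5g3.

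Summed over a complex, the members stood higher in each PLT and each PEM mouse than in both MUL mice for complexes I, III, IV and V, and not for complex II. For all 92 members the mean sum per cell was 21756 RPKM in PLT 1 and 34349 in PLT 2, 24804 in PEM 1 and 22982 in PEM 2, against 19115 in MUL 1 and 16184 in MUL 2. Their share of all RPKM was 4.07% in PLT 1, 5.67% in PLT 2, 4.04% in PEM 1 and 3.92% in PEM 2, against 3.64% in MUL 1 and 3.05% in MUL 2. Without the 7 cells PEM 1 and PEM 2 had sums of 20787 and 22542 RPKM and shares of 3.74% and 3.98%. PLT 2 stands apart as the highest, and the 2 PLT mice differ more from each other than PLT 1 differs from the MUL mice. Complex I summed to 9795 and 14546 RPKM in PLT mice, 9977 and 9180 in PEM mice, and 8346 and 6809 in MUL mice. Complex V, the ATP synthase, summed to 4184 and 7407 RPKM in PLT mice, 5286 and 5399 in PEM mice, and 3710 and 3405 in MUL mice. Complex II ran otherwise, with 899 and 1135 RPKM in PLT mice, 802 and 793 in PEM mice, and 999 and 749 in MUL mice. The MUL mice thus overlapped both other groups, while both PLT mice lay above both PEM mice. As group means, all 92 members summed to 28052 ± 8905 RPKM in PLT mice, 23893 ± 1289 in PEM mice and 17649 ± 2072 in MUL mice (SD, n = 2 each). Cells spread widely within every mouse, complex I for example from 3318 to 18817 RPKM in PLT 1. Without the 7 cells of high RPKM total, PEM 1 had 8338 RPKM for complex I, just below the 8346 of MUL 1. The PEM mice then still lay above both MUL mice for complexes III (2833 and 2847 against 2498 and 2079), IV (4139 and 4814 against 3561 and 3141) and V (4660 and 5346 against 3710 and 3405).

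**Figure D1:**
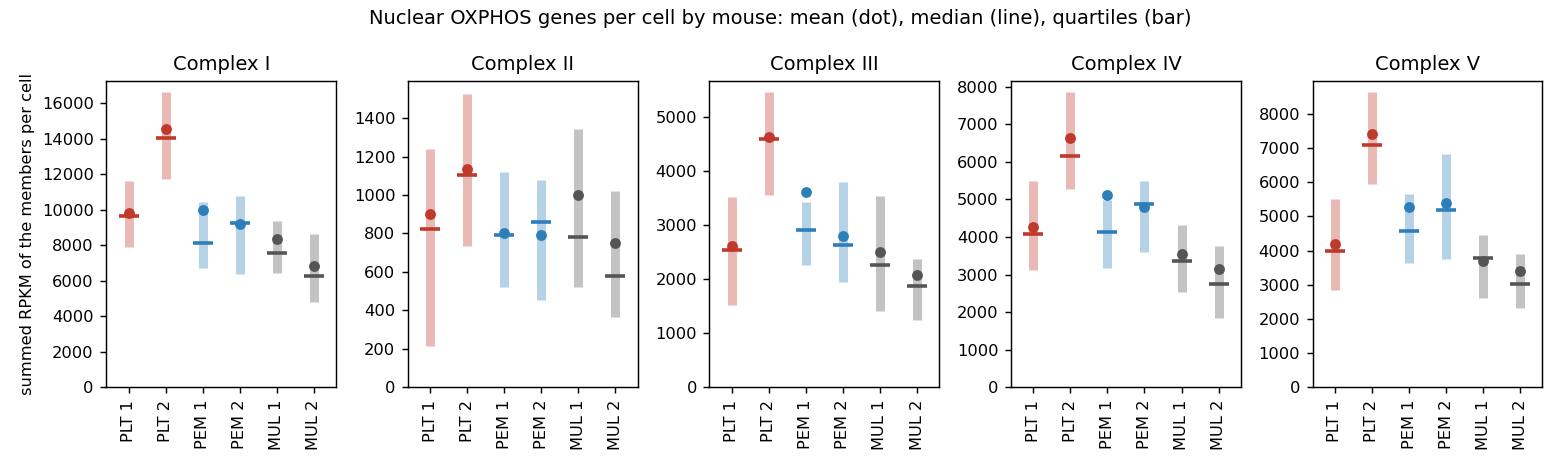
Summed RPKM of the member genes per cell (y axis, from 0) in each mouse (x axis), 1 panel per complex, with the mean over cells as a dot, the median as a line and the quartiles as a bar. PLT 2 is highest in every panel, and the 2 MUL mice have the lowest means in complexes I, III, IV and V, while in complex II PLT 1 (899), PEM 1 (802) and PEM 2 (793) lie below MUL 1 (999).

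More genes of the set were also picked up per cell in some mice. A PLT 1 cell held a mean of 43.2 members at 1 RPKM or more and a PLT 2 cell 66.5, against 62.2 in PEM 1, 54.4 in PEM 2, 48.7 in MUL 1 and 49.2 in MUL 2. PLT 1, the mouse with the fewest detected genes, thus had the fewest members per cell and a sum above that of both MUL mice. Complexes I and V varied together over the cells of a mouse, with a mean Spearman rho of 0.61 over the 6 mice (range 0.41 to 0.83), and complexes I and IV did so with 0.55 (0.28 to 0.73). Complex II was the loosest, with mean rho between 0.16 and 0.24 to the other complexes. These correlations run over 25 to 93 cells of 1 mouse each, share the libraries and their depth, and are given as description.

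Between PLT and MUL mice no member passed the test. The fit was limma on log2(mean RPKM + 1) with Benjamini-Hochberg adjustment over all genes at a threshold of 0.05, and fold changes are on that scale. It called 0 of 85 members, and 1 of 11337 genes (0.00882%). Of the members, 70 had a higher and 15 a lower mean in PLT mice, where 41.6% and 58.3% of all genes did, with a median log2 fold change of 0.62, while the median of all genes was -0.18. The PLT mice did not overlap the MUL mice and lay above them for 45 members (52.9%), against 14.8% of all genes, and lay below them for 7 (8.24%), against 24.9%. At an unadjusted p under 0.05, 19 members were higher and 2 lower, against 2.44% and 5.96% of all genes. By complex, the median log2 fold change was 0.61 for I, 0.35 for II, 0.67 for III, 0.79 for IV and 0.62 for V. Leaving out PLT 2 brought these medians to 0.22, 0.19, 0.20, 0.24 and 0.08, and leaving out PLT 1 brought them to 0.96, 0.51, 1.13, 1.25 and 1.12. Without MUL 2 the complex II median was -0.07.

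By part of complex V, the membrane part had the highest median log2 fold change between PLT and MUL mice (1.11). Atp5k, subunit e at chr5:108433244-108434448, had 338 and 468 RPKM in PLT mice, 241 and 395 in PEM mice, and 170 and 131 in MUL mice. All PLT and PEM values lay above both MUL values, and the log2 fold change between PLT and MUL mice was 1.41 ± 0.37 (SE, limma adjusted p = 0.48). The other membrane subunits, Atp5l and Atp5j2, had log2 fold changes of 0.93 and 1.11 between the same mice. All 3 c-ring genes had a higher mean in PLT than in MUL mice. Atp5g1 had 265 and 682 RPKM in PLT mice, 343 and 415 in PEM mice, and 240 and 186 in MUL mice, without overlap. The log2 fold change between PLT and MUL mice was 0.99 for Atp5g2, also without overlap, and 0.62 for Atp5g3, where the mice overlapped. The 4 members of the peripheral stalk had values from 0.34 to 0.82. The catalytic F1 head was not higher, with 169 and 220 RPKM for Atp5a1 in PLT mice, against 234 and 306 in MUL mice. Atp5d, the delta subunit of the central stalk at chr10:80138632-80145818, was the lowest member of this contrast. It had 18.0 and 59.7 RPKM in PLT mice, 125 and 158 in PEM mice, and 87.2 and 94.5 in MUL mice, and its log2 fold change between PLT and MUL mice was -1.43 ± 0.55 (SE, limma adjusted p = 0.556). Atp5sl was also lower, with a log2 fold change of -1.19.

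In complex I the supernumerary subunits, which surround the catalytic core, had the most uniform direction: 27 of 28 tested were higher in PLT than in MUL mice, with a median log2 fold change of 0.74. For core subunits the median was 0.50 (5 of 7 above 0), and for assembly factors -0.04 (3 of 7). Ndufb7 had 360 and 455 RPKM in PLT mice, 258 and 227 in PEM mice, and 201 and 155 in MUL mice. Its groups did not overlap, and its log2 fold change between PLT and MUL mice was 1.19 ± 0.32 (SE, limma adjusted p = 0.48). Ndufa8 had 424 and 613 RPKM in PLT mice, 334 and 337 in PEM mice, and 261 and 236 in MUL mice, again without overlap. Without the 7 cells of high RPKM total the PEM values of Ndufb7 (202 and 199) and Ndufa8 (345 and 229) overlapped those of the MUL mice.

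Of complex IV, all 10 widely expressed subunits had a higher mean in PLT than in MUL mice (41.6% of all genes did), 8 of them without overlap (14.8% of all genes). Cox7c, a small subunit at chr13:86044816-86046904, had 570 and 910 RPKM in PLT mice, 505 and 462 in PEM mice, and 369 and 235 in MUL mice. The log2 fold change was 1.29 ± 0.35 between PLT and MUL mice (SE, limma adjusted p = 0.48). Cox6c had 484 and 661 RPKM in PLT mice, 513 and 437 in PEM mice, and 294 and 218 in MUL mice. Cox4i2 had the largest fold change of all members (2.11 ± 1.08, SE) at very low levels, with 3.01 and 17.9 RPKM in PLT mice, 12.3 and 4.5 in PEM mice, and 0 and 3.07 in MUL mice, and the PLT and MUL mice overlapped. Cox7a2l, which ties complexes III and IV into supercomplexes, was the only tested complex IV member with a lower mean, with 566 and 316 RPKM in PLT mice against 489 and 493 in MUL mice, and PLT 1 lay above both.

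Of complex III, the 5 small subunits were higher in PLT than in MUL mice and the core proteins were mixed. Uqcr10 had 428 and 680 RPKM in PLT mice, 639 and 337 in PEM mice, and 242 and 198 in MUL mice. Every PLT and PEM value exceeded both MUL values. Uqcrq, another small subunit, had 244 and 486 RPKM in PLT mice, 260 and 187 in PEM mice, and 149 and 131 in MUL mice, with the MUL values lowest. Uqcr11 had 426 and 911 RPKM in PLT mice, 749 and 543 in PEM mice, and 511 and 296 in MUL mice, and PLT 1 lay between the MUL mice. Uqcrc1, a core protein, differed little, with 412 and 405 RPKM in PLT mice, 411 and 388 in PEM mice, and 446 and 497 in MUL mice, all MUL values being the higher. In complex II, Sdhb, the iron-sulphur subunit, had 383 and 660 RPKM in PLT mice, 301 and 351 in PEM mice, and 464 and 314 in MUL mice. Sdha, the flavoprotein that also serves the TCA cycle, lies at chr13:74322254-74350280 and had 138 and 122 RPKM in PLT mice, 219 and 145 in PEM mice, and 179 and 208 in MUL mice. Both PLT values of Sdha lay below both MUL values, with a log2 fold change of -0.57 ± 0.35 (SE, limma adjusted p = 0.707). The anchor subunit Sdhd overlapped, with 293 and 264 RPKM in PLT mice, 208 and 216 in PEM mice, and 332 and 154 in MUL mice. For the other anchor, Sdhc, the values were 84.7 and 88.8 RPKM in PLT mice, 73.3 and 82.3 in PEM mice, and 24.9 and 73.8 in MUL mice, and every PLT value exceeded both MUL values.

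Between PEM and MUL mice, which uses the same MUL mice, limma again called 0 of 85 members and 0 of 11337 genes (0%). Of the members 68 had a higher mean in PEM mice, where 47.6% of all genes did, with a median log2 fold change of 0.47 against -0.04 for all genes. The PEM mice lay above both MUL mice for 48 members (56.5%), against 17.5% of all genes, and below them for 5 (5.88%), against 18.3%. At an unadjusted p under 0.05, 12 members were higher and 0 lower, against 2.8% and 2.79% of all genes. The medians were 0.40 for complex I, -0.10 for II, 0.48 for III, 0.61 for IV and 0.63 for V. Without the 7 cells of high RPKM total they were 0.18, -0.01, 0.30, 0.41 and 0.60, 64 members had a higher mean, and 45 lay above without overlap (52.9%, against 17.6% of all genes). In complex I alone 33 of 43 members had a higher mean with these cells and 28 without them. With each cell's value put on the log2 scale before averaging, the medians were 0.81, 0.75, 1.27, 1.19 and 1.64, which turns the direction of complex II. The median of all genes was then 0.15. In complex V 15 of 17 members had a higher mean, 14 of them without overlap, with or without the 7 cells. Atp5e, the epsilon subunit of the central stalk at chr2:174461072-174464105, had 270 and 494 RPKM in PLT mice, 474 and 362 in PEM mice, and 202 and 134 in MUL mice. Every PLT and PEM value exceeded both MUL values. Its log2 fold change between PEM and MUL mice was 1.33 ± 0.39 (SE, limma adjusted p = 0.867). Atp5j2 had 265 and 364 RPKM in PEM mice, against 176 and 96.4 in MUL mice, and Ndufa13 had 296 and 336 against 169 and 148. Both pairs of groups were apart. Atp5s was lower in PEM mice, with 36.1 and 22.3 RPKM against 45.2 and 48.9 in MUL mice.

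Between PLT and PEM mice the members as a whole showed no common direction that held in both PLT mice. Complex II was the exception, with a median log2 fold change of 0.18 without PLT 2 and 0.25 without PLT 1. Its sum was also higher in both PLT mice than in both PEM mice. Without the 7 cells of high RPKM total this held for the complex I sum too, with 9795 and 14546 RPKM against 8338 and 8714. limma called 0 of 85 members and 0 of 11337 genes (0%). Of the members 58 had a higher and 27 a lower mean in PLT mice, where 43.6% and 56.3% of all genes did. The PLT mice lay above both PEM mice for 19 members (22.4%), against 14.1% of all genes, and below them for 7 (8.24%), against 21.9%. At an unadjusted p under 0.05, 4 members were higher and 4 lower, against 2.49% and 5.88% of all genes. The medians by complex were 0.11, 0.27, 0.13, 0.16 and 0.10 for I to V, and without PLT 2 they were -0.11, 0.18, -0.11, -0.16 and -0.41. Without the 7 cells of high RPKM total they were 0.38, 0.19, 0.38, 0.31 and 0.13, with 61 members higher, and 26 above without overlap (30.6%, against 13.6% of all genes). Averaging log2 values of cells gave -0.09, -0.73, -0.25, -0.02 and -0.41, all below 0. The median of all genes was then -0.19, so that complexes I and IV lay above it. Atp5d stood out on the lower side with a log2 fold change of -2.06 ± 0.55 (SE, limma adjusted p = 0.545), its 4 values being those given above. Both genes of the F1 head lay lower in PLT than in PEM mice without overlap: Atp5b had 241 and 322 RPKM in PLT mice against 465 and 466 in PEM mice, and Atp5a1 had 169 and 220 against 294 and 259. On the higher side were Ndufc1, with 461 and 470 RPKM in PLT mice against 313 and 173 in PEM mice, and Atp5o of the peripheral stalk, with 560 and 849 against 362 and 387. The assembly factor Ndufaf3 had 16.4 and 15.5 RPKM in PLT mice, against 30.2 and 57.4 in PEM mice. Without the 7 cells of high RPKM total its PEM values were 24.5 and 17.4, the latter close to the PLT values. It reached 1 RPKM in few cells, from 4.3% in PLT 1 to 24% in PEM 2.

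**Figure D2:**
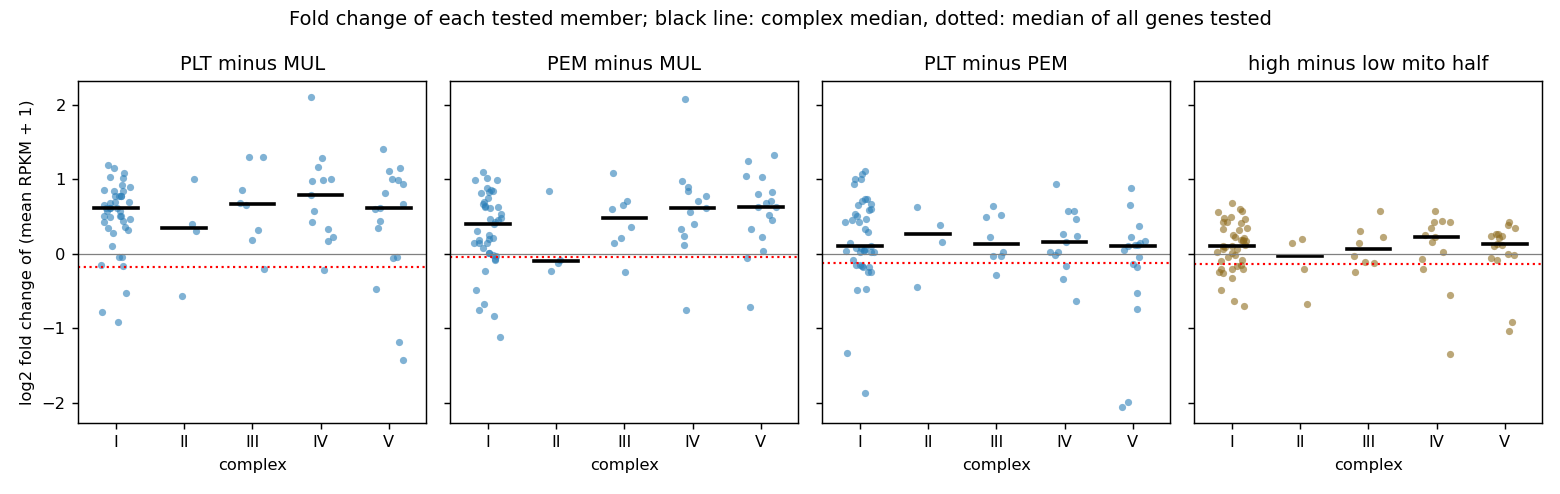
Log2 fold change of (mean RPKM + 1) for each of the 85 tested members (points) by complex (x axis), with the median of the complex as a black line and that of all genes tested as a dotted line. In the PLT minus MUL panel the complex medians lie between 0.35 and 0.79 and the median of all genes at -0.18, and in the PEM minus MUL panel complex II sits at -0.10 below the other 4 complexes (0.75 when log2 values are averaged over cells).

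Short genes in general also stood higher in PLT and PEM mice. The tested members are short, with a median transcript of 763 nt (321 to 3632 nt, the median over the basic transcripts of a gene). All 34 members of up to 700 nt had a higher mean in PLT than in MUL mice, with a median log2 fold change of 0.80, and 401 other genes of that length had a median of 0.43. For members of 700 to 1000 nt the median was 0.66, against 0.14 for 709 other genes. From 1000 to 1500 nt it was 0.40 against -0.03, and from 1500 to 2500 nt 0.15 against -0.29. Above 2500 nt the 5 members had -0.04 and 5753 other genes -0.26. Between PEM and MUL mice members of up to 700 nt had a median of 0.65 and other genes of that length 0.41. Over the 85 members, which are not independent, Spearman's rho of fold change with length was -0.49 in the PLT and -0.39 in the PEM comparison with MUL mice. Over 11262 genes it was -0.09 and -0.07. With a smooth trend on length removed from each mouse, the PLT minus MUL medians were 0.52, 0.40, 0.40, 0.56 and 0.49 for complexes I to V. The PEM minus MUL medians were 0.19, -0.06, 0.25, 0.35 and 0.35. The median of all genes moved with it, from -0.18 to 0.03 in PLT minus MUL and from -0.04 to 0.02 in PEM minus MUL. The part of length in the remaining difference was not tested. Copies bear on a number of members too: 22 of the 85 tested have at least 1 near-identical gene elsewhere, up to 8 for Atp5l, so that their reads could be shared out differently and their levels are uncertain. These 22 had a median log2 fold change of 0.80 between PLT and MUL mice and the 63 without a copy 0.51.

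**Figure D3:**
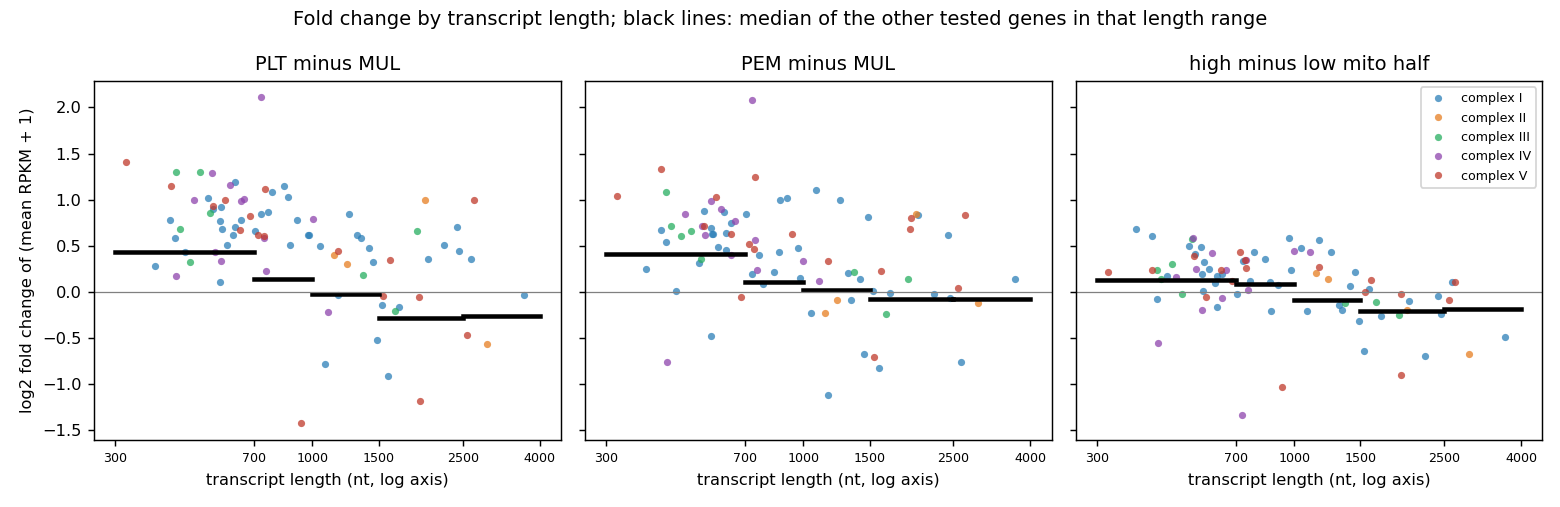
Log2 fold change of (mean RPKM + 1) against transcript length in nt (log axis) for the 85 tested members, coloured by complex, with the median of the other tested genes in each length range as a black line. Members of up to 700 nt lie around 0.80 in PLT minus MUL, where other genes of that length lie at 0.43. Above 2500 nt the 5 members have a median of -0.04 and other genes -0.26.

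The other genes of the pathway had medians nearer to 0 than the tested members, whose medians were 0.62 in PLT minus MUL and 0.47 in PEM minus MUL. The medians of all genes were -0.18 and -0.04. These lists were not matched to the members in transcript length. The lists came from textbook membership. Of 34 tested assembly factors of the respiratory complexes, 16 were higher in PLT than in MUL mice and 21 in PEM than in MUL mice, with median log2 fold changes of -0.11 and 0.09 (the Ndufaf members are not in this list). Of 24 tested electron carriers and nucleotide exchangers, 15 and 12 were higher, with medians of 0.27 and -0.01. Of 17 tested TCA cycle genes, 9 and 9 were higher, with medians of 0.02 and 0.05. Of 20 tested regulators of mitochondrial transcription and biogenesis, 11 and 10 were higher, with medians of 0.01 and 0.02. limma called 0 genes of these 4 lists in any of the comparisons. At an unadjusted p under 0.05, the highest count was among the 24 carriers between PLT and PEM mice, with 3 higher (12.5%) and 5 lower (20.8%), against 2.49% and 5.88% of all genes. The 5 lower were Cyc1, Coq4, Coq9, Etfdh and Ucp2, and the 3 higher Coq7, Coq10b and Etfa. Cyc1, the complex III subunit that the name rule leaves out, had 71.4 and 80.8 RPKM in PLT mice, 142 and 165 in PEM mice, and 64.2 and 137 in MUL mice. In the other list and comparison pairs at most 3 genes passed that level in 1 direction. Atpif1, the inhibitor of ATP synthase, had 1120 and 1554 RPKM in PLT mice, 1445 and 1209 in PEM mice, and 769 and 659 in MUL mice, without overlap. Nrf1, the factor whose motif is printed above, had 7.21 and 0.992 RPKM in PLT mice, 14.2 and 18.2 in PEM mice, and 8.85 and 12.6 in MUL mice.

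The share of a cell's reads that fell on the mitochondrial chromosome, deposited as a percent for each cell, is the nearest measure of the mitochondrially encoded side. Its median was 6.41% in PLT 1 and 6.69% in PLT 2, 4.01% in PEM 1 and 4.03% in PEM 2, and 6.06% in MUL 1 and 5.34% in MUL 2. Over the mice it did not follow the nuclear genes: the PEM mice were lowest in mitochondrial percent and lay above the MUL mice in nuclear sums. Within every mouse it was lower in cells with more detected genes, with rho from -0.725 to -0.232. Over the cells of a mouse, the summed RPKM of complex I had a mean rho with mitochondrial percent of 0.15 over the 6 mice, positive in 5 of 6. The means were -0.03 for complex II, 0.04 for III, 0.08 for IV and 0.07 for V. MUL 2 had the highest value for complexes I, III, IV and V (0.41, 0.23, 0.28 and 0.27). When each member was given equal weight instead, as the mean of log2(RPKM + 1), every mean was negative, at -0.27, -0.23, -0.24, -0.20 and -0.22, and MUL 2 alone stayed positive in complexes I, III, IV and V. For the sums, the mean partial rank correlation given detected genes and mapped reads was 0.20, 0.05, 0.12, 0.12 and 0.19 for complexes I to V. The sign thus depends on the measure. Cell titles carry a part P1 or P2 that the labels do not explain. Within the 12 combinations of mouse and part, rho for the complex I sum was positive in 10, from -0.54 in 14 PEM 2 cells to 0.50 in 45 MUL 2 cells. The other part of PEM 2, with 11 cells, had 0.42, so that mouse gave no stable value.

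**Figure D4:**
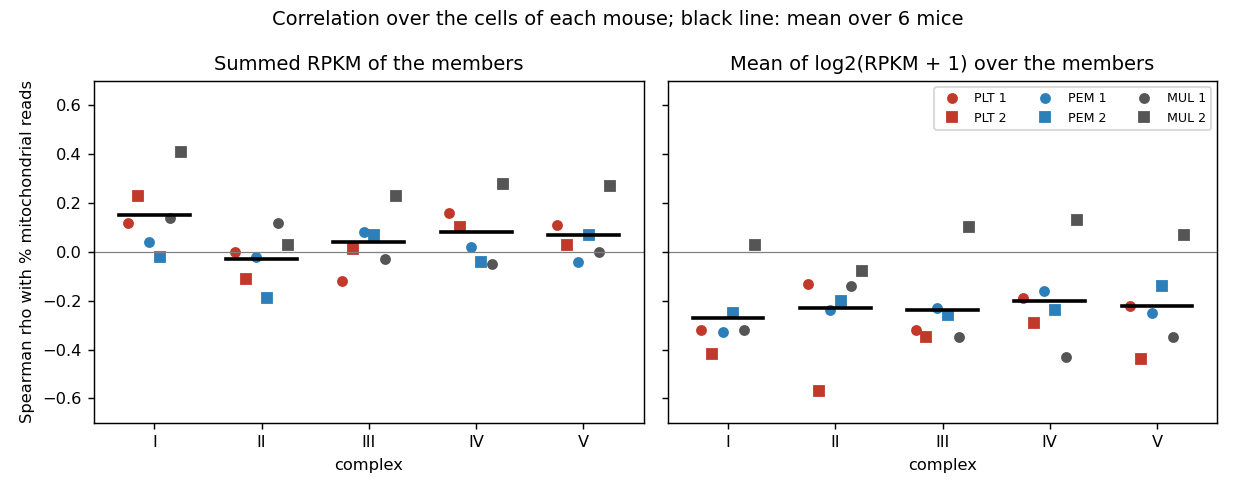
Spearman rho over the cells of each mouse (points, 6 mice) between the percent of mitochondrial reads and each complex, for the summed RPKM of the members (left) and the mean of log2(RPKM + 1) over the members (right), with the mean over mice as a black line. The complex I mean is 0.15 on the left and -0.27 on the right, and all 5 means on the right are below 0.

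Cells with more mitochondrial reads held fewer detected members, with a higher mean level per detected member. Cells were split in each mouse at its median mitochondrial percent into 227 high and 231 low cells, of which 132 lay within 0.5 percentage points of the cut. In PLT 1 high cells held 40.5 members at 1 RPKM or more and low cells 45.7, and in PLT 2 they held 63.1 and 69.9. In PEM 1 the means were 59.4 and 64.9, in PEM 2 52.3 and 56.2, in MUL 1 44.7 and 52.8, and in MUL 2 47.7 and 50.6, so that high cells held fewer in 6 of 6 mice. The level per detected member was higher in high cells in 6 of 6 mice, from 555 RPKM against 459 in PLT 1 to 391 against 272 in MUL 2. The ratio of high to low cells in genes per cell was 0.846 to 0.944 for the members and 0.716 to 0.976 for all other tested genes. In RPKM per detected gene it was 1.19 to 1.48 for the members and 1 to 1.43 for the other genes.

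**Figure D5:**
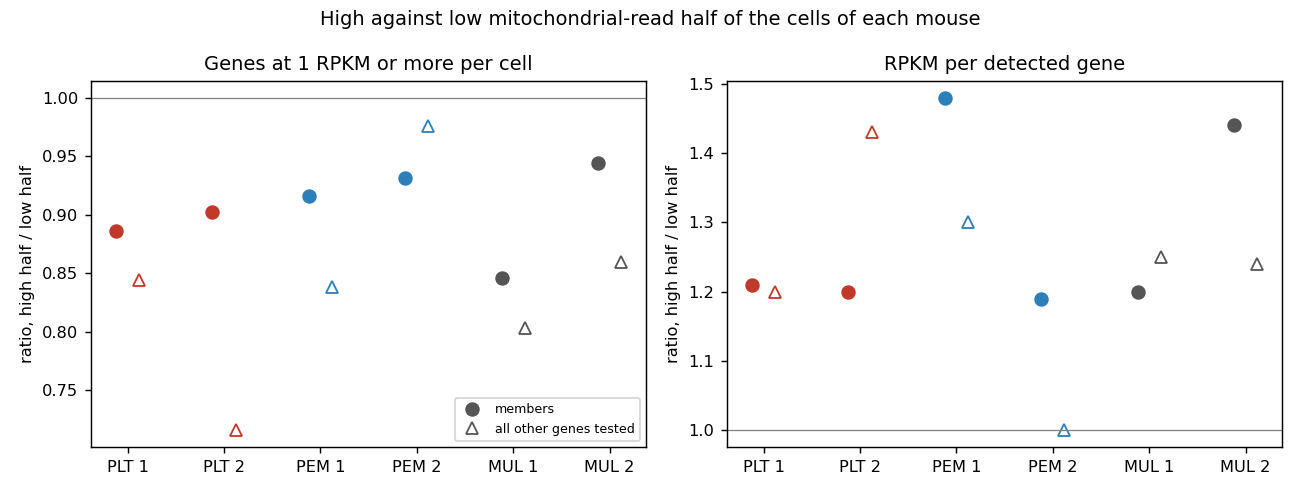
Ratio of high to low mitochondrial-percent cells of each mouse (x axis) in the number of genes at 1 RPKM or more per cell (left) and in RPKM per detected gene (right), for the members (filled circles) and all other tested genes (open triangles). The members lie below 1 on the left and above 1 on the right in all 6 mice.

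On the means of high and low cells, with the mouse as a block, limma called 0 of 85 members and 0 of 11889 genes (0%). Of the members 54 were higher and 31 lower in high cells, where 40.4% and 59.6% of all genes were, with a median log2 fold change of 0.13, against -0.14 for all genes. The direction was the same in all 6 mice for 5 members on the higher side (5.88%), against 2.24% of all genes, and for 0 on the lower side, against 3.1%. At an unadjusted p under 0.05, 11 members were higher and 1 lower, against 2.6% and 6.49% of all genes. The medians were 0.11, -0.03, 0.06, 0.23 and 0.13 for complexes I to V, and 0.05, -0.02, -0.10, 0.13 and 0.05 without the 7 cells of high RPKM total. With each cell's value put on the log2 scale before averaging they were all below 0, at -0.48, -0.69, -0.59, -0.33 and -0.36, so the direction depends on how cells are averaged. The median of all genes was -0.14 with either averaging. Without the 7 cells 46 members were higher. The 5 members higher in every mouse were Uqcrb, Cox7c, Cox7b, Ndufb4 and Atp5j. Uqcrb, a small complex III subunit at chr13:66900617-66905378, had 532, 1119, 748, 471, 507 and 461 RPKM in the high cells of PLT 1, PLT 2, PEM 1, PEM 2, MUL 1 and MUL 2. The low cells of the same mice had 387, 966, 524, 295, 336 and 238 RPKM. Its log2 fold change was 0.57 ± 0.13 (SE, limma adjusted p = 0.528, unadjusted p = 0.00132). Cox7c had 577, 1061, 595, 612, 419 and 326 RPKM in the high cells and 564, 760, 417, 324, 319 and 146 in the low cells. Uqcrb and Cox7c each have 3 near-identical pseudogenes in the annotation. Sdha was lower in high cells in 5 of 6 mice, with 85, 72.4, 179, 79.3, 201 and 198 RPKM against 191, 172, 259, 205, 158 and 217, and MUL 1 was the exception. The log2 fold change of Sdha was -0.68 ± 0.26 (SE, limma adjusted p = 0.528). Ndufa6, a small complex I subunit, had a log2 fold change of 0.68 ± 0.19 (SE, limma adjusted p = 0.528) and was higher in high cells in 5 of 6 mice. Uqcrc2, a core protein of complex III, had -0.25 ± 0.31 (SE) and was higher in 2 of 6. Length split these values too: of 14 members of 1500 to 2500 nt, 2 were higher in high cells, while 27 of 34 members of up to 700 nt were.

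Single members ranged from a mean rho with mitochondrial percent of 0.22 for Cox7c, positive in 6 of 6 mice, to -0.22 for Sdha, negative in 6 of 6. Of the 85 members 34 had a positive mean rho (40.0%), against 22.5% of all genes and 34.7% of 1009 other genes of at least 100 RPKM. The highest of each complex were Ndufb4 (0.13), Sdhb (0.03), Uqcrh (0.10), Cox7c and Atp5l (0.06). The lowest were Ndufv1 (-0.19), a core subunit of complex I, Sdha, Uqcrfs1 (-0.14), the Rieske iron-sulphur protein, Cox6a1 (-0.17) and Atp5d (-0.21). Values this close to 0 in sparse single-cell data describe these cells and no more.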

How the data were processed

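Single HSCs were index sorted and sequenced after amplification with a SMARTer Ultra Low RNA kit (Clontech), as the labels' protocols state. TopHat, featureCounts and mm10 are named in the submitters' processing notes, with no versions. The RPKM values, counts of mapped reads and detected genes, and percent of mitochondrial reads were used as the authors deposited them. The read total behind RPKM and the gene lengths are not given in the sources used here.

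Each mouse, not each cell, was a replicate, since cells of 1 mouse share a source. Member RPKM was averaged over a mouse's cells and log2(mean + 1) was fitted with limma 3.58.1 (R 4.3.3, trend in the prior variance), for genes with at least 1 RPKM in at least 2 mice, with Benjamini-Hochberg adjustment over all genes and a threshold of 0.05. The p-values measure the spread between 2 mice a group. Cells above or at or below the median mitochondrial percent of their mouse were compared with the mouse as a block. There a gene was tested when at least 2 of the means of high or low cells reached 1 RPKM, so that 1 mouse could be enough. Spearman correlations ran over the cells of a mouse. Named members were, for each complex, the 2 of highest level, those with the smallest p on each side of each comparison, those with the highest and lowest correlation, and the paralog sets and Sdh genes whatever their values. Others named beside them (such as Atp5a1, Uqcrq in PLT mice, Atp5l and the pathway genes) were picked after their values were seen. Some genes that this rule names are not reported here. Near-identical copies were found with BLAST 2.17.0 on coding sequences (at least 95% identity over at least 80%), with annotation GENCODE M21. Promoters came from RefSeq. The members and gene lists were chosen with earlier results of these data known. The linear fits were tested on simulated data. Alternatives covered pseudocount, filter, normalization, averaging of logs, depth windows and left-out mice.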

Additional observations from a re-analysis of the deposited data

Results flagged for a closer look

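The rank correlation of the complex II sum with mitochondrial percent had opposite signs in 2 groups: it was -0.02 in PEM 1 and -0.19 in PEM 2, against 0.12 in MUL 1 and 0.03 in MUL 2. The difference was not tested, and all 4 values lie near 0.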

How the results depend on the processing

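No member passed the threshold in 87 of 87 recomputed counts over the 4 comparisons, the lowest limma adjusted p being 0.322 for PLT against MUL, 0.306 for PEM against MUL, 0.301 for PLT against PEM and 0.137 for high against low cells. Of 577 recomputed values over 28 settings, 537 were rated as unchanged and 40 as moved. The 577 include the 87 counts, which were rated as unchanged because they were 0, with no SD involved. For the other values the yardstick was 1 SD between mice. In the group comparisons this was the pooled SD of the mice's median log2 levels, 0.22 to 0.45 by complex. It is no SD of the fold changes themselves. Averaging log2 values over cells gave complex medians of 0.81, 0.75, 1.27, 1.19 and 1.64 for complexes I to V in PEM minus MUL, 1.25 for V in PLT minus MUL, -0.73, -0.25 and -0.41 for II, III and V in PLT minus PEM, and -0.48, -0.69, -0.59, -0.33 and -0.36 for I to V in high minus low. Under this averaging the median of all genes was 0.15 in PEM minus MUL, -0.05 in PLT minus MUL, -0.19 in PLT minus PEM and -0.14 in high minus low. The same averages with quantile normalization gave 0.16 for II and 1.13 for V in PEM minus MUL, -0.29 for II in PLT minus PEM, and -0.14 for I and -0.13 for IV in high minus low. Quantile normalization alone gave 0.11 for II in PLT minus MUL, and moved the median of all genes there from -0.18 to 0.03. Cells of 1800 to 3000 detected genes gave 0.21 for II in PEM minus MUL. Correlations with mitochondrial percent were -0.27, -0.23, -0.24, -0.20 and -0.22 with members weighted equally, and 0.19 for V given detected genes and mapped reads. The cause was not tested for any of these. Leaving out 1 mouse gave, for complexes I to V, 0.22 to 0.96, -0.07 to 0.51, 0.20 to 1.13, 0.24 to 1.25 and 0.08 to 1.12 in PLT minus MUL. In PLT minus PEM it gave -0.11 to 0.58, 0.18 to 0.33, -0.11 to 0.53, -0.16 to 0.54 and -0.41 to 0.48. In PEM minus MUL it gave 0.24 to 0.50, -0.26 to 0.06, 0.27 to 0.62, 0.50 to 0.80 and 0.62 to 0.68, and in high minus low 0.10 to 0.19, -0.15 to 0.02, -0.03 to 0.20, 0.09 to 0.29 and 0.12 to 0.22. A group left with 1 mouse is assumed to vary like the others. The averaging with quantile normalization, the split by residual with it, the set without 7 cells and the removal of a length trend were chosen after seeing the data. No paired analysis was possible because the labels give the mice no replicate numbers of their own; this concerns PLT, PEM and MUL mice, as high and low cells were compared within each mouse. With 2 mice a group, precision is limited by their number, and RPKM values give no estimate of their counting error.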
